A study of Mus musculus with 3 samples.

Results

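The genes described here are the CXCR2 ligands Cxcl1, Cxcl2 and Cxcl3 and the receptors Cxcr1 and Cxcr2, 5 of the 32285 genes in the count tables. They were chosen by symbol, and each symbol had 1 row in every library. Single-cell RNA sequencing was done on live CD45+ leukocytes sorted from primary 4T1 mammary tumors of female Balb/c mice, 6 to 8 weeks old when 200000 tumor cells were implanted in the 4th mammary fat pad. All tumors were taken on day 14, and the tumors of 3 mice per group were pooled into 1 library.

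The vehicle group carried 4T1-luc tumors with wild-type p38α and received DPBS from day 4 for 10 days. The p38i group carried the same tumors and received the oral p38 inhibitor LY2228820 at 30 mg/kg daily over the same 10 days. The p38KO group carried p38a-KO-H9 tumors, tumor cells in which CRISPR-Cas9 inactivated p38α, and its treatment is given as not applicable. The sorted leukocytes of all groups are host cells with no p38α deletion. The study grew its knockout lines from single sorted cells, and since 1 such line (H9) was used here, the clone and the loss of p38α cannot be told apart. As no treatment is listed for the p38KO group, the DPBS dosing of the vehicle group cannot be told apart from these either.

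CXCL1, CXCL2 and CXCL3 are small chemokines that bind the G protein-coupled receptor CXCR2 on neutrophils and draw these cells into inflamed tissue and tumors. CXCR1 is the related receptor encoded beside Cxcr2. The ligand genes are classical NF-κB targets, and their short-lived messages carry AU-rich elements, a class of message whose stability is known to be raised by p38 through its substrate kinase MK2. Many myeloid cells can make the ligands, while CXCR2 is mainly a receptor of neutrophils.

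The 3 ligand genes lie together on chromosome 5 of GRCm38 (GENCODE M21), all on the plus strand. Cxcl3 (ENSMUSG00000029379) spans 90786103 to 90789600, Cxcl1 (ENSMUSG00000029380) 90891241 to 90893115 and Cxcl2 (ENSMUSG00000058427) 90903871 to 90905938. Cxcl1 and Cxcl2 are separated by 10755 bases, and Cxcl3 lies 101640 bases before Cxcl1. The receptors are neighbours on chromosome 1, with Cxcr2 (ENSMUSG00000026180) at 74153989 to 74161246 on the plus strand and Cxcr1 (ENSMUSG00000048480) at 74191785 to 74194631 on the minus strand.

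The sequences just before the ligand genes are shown because all of them hold the same pair of short words, although the genes differed widely in level. Each line gives the 90 bases before the earlier of the GENCODE and RefSeq start sites (RefSeq sequence, GRCm38.p6, plus strand). Capitals mark GGGAATTTCCC, a κB-type motif, and ATAAAAGG, a TATA-type motif, which are the longest words of at least 8 bases that all 3 windows share and do not overlap.
Cxcl1, chr5:90891151-90891240: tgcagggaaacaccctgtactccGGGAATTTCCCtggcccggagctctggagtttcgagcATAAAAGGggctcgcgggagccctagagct
Cxcl2, chr5:90903781-90903870: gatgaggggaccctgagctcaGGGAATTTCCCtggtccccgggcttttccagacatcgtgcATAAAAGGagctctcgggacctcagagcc
Cxcl3, chr5:90786011-90786100: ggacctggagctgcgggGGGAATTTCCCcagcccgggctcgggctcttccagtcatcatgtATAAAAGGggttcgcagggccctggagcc

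The κB-type motif began 67 bases before the start in Cxcl1, 69 in Cxcl2 and 73 in Cxcl3. The TATA-type motif began 30, 29 and 29 bases before it. Searched on both strands in the 120 bases before 32851 RefSeq gene starts, GGGAATTTCCC occurred in 9 windows (0.0274%) and ATAAAAGG in 311 (0.947%). Both occurred together in 3 windows, which were those of Cxcl1, Cxcl2 and Cxcl3, from which the words were taken. Neither motif was found before Cxcr1 or Cxcr2. A match is a description of the letters and not of a bound site.

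In the 3′ untranslated regions, the ligands also differed in the AUUUA core of AU-rich elements, written ATTTA in the annotation. The longest annotated form held 11 copies in the 1494 bases of Cxcl2, 7 in the 592 bases of Cxcl1 and 5 in the 645 bases of Cxcl3. At least 11 copies were present in 5.47% of 20993 protein-coding genes, at least 7 in 13.3% and at least 5 in 21.6%. The longer TATTTAT occurred 7 times in Cxcl2, 6 times in Cxcl1 and 2 times in Cxcl3. Cxcr2 had 2 ATTTA copies and Cxcr1 had 0. The 30-base stretch with most copies is shown for each ligand, with ATTTA in capitals.
Cxcl1: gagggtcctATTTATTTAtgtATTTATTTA
Cxcl2: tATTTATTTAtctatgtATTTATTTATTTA
Cxcl3: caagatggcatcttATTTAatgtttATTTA

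In the stretches shown, overlapping copies of Cxcl2 and Cxcl1 formed runs, while the 2 copies of Cxcl3 stood apart. Its other copies lie outside the stretch. Reads of the 3′ protocol come from the ends of messages, and no stretch of 50 bases was shared between the last 400 bases of any pair of the ligand transcripts, so the paralogs can be told apart there.

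After the cell filter of the study (at least 1500 unique molecular identifiers, or UMIs, at least 300 genes and at most 20% mitochondrial counts), 3820 vehicle, 4793 p38i and 3859 p38KO cells were kept. The deposited matrices hold unnormalized UMI counts, with a median of 3162, 3038 and 3317 per kept cell. Ptprc, the gene of CD45, had a UMI in 89.2% to 91.0% of kept cells, the median mitochondrial share was 0.671%, 0.968% and 2.10%, and pairs of libraries shared 4 or 5 barcodes of kept cells. No doublets were removed.

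Cells were gated on raw counts. Csf3r marked neutrophils (1461, 1552 and 1281 cells in vehicle, p38i and p38KO), Ly6c2 and Fn1 monocytes (449, 778 and 379), C1qa macrophages (179, 196 and 572), Cd3e T cells (543, 642 and 512), Ncr1 NK cells (118, 114 and 133) and Flt3 dendritic cells (20, 41 and 41). All 6 neutrophil markers of a fixed list, Csf3r among them, were detected in the neutrophil gate of every library. They were also detected in every monocyte, macrophage, T and NK gate, so detection alone does not set the neutrophil gate apart. The Csf3r gate may not have taken in all neutrophils: 601, 927 and 367 cells met no gate but held at least 50 UMIs of S100a8 and S100a9, the calprotectin genes of neutrophils. These cells are called ungated S100-high and are described as a set of their own, which was defined after the counts were seen. Their 6 neutrophil markers summed to 154389, 192266 and 142754 CPM (UMIs of a gene per 1000000 UMIs of the set of cells), against 189138, 212586 and 144454 in the gate. S100a8 and S100a9 are among these 6, so a high sum follows from how the set was chosen. It cannot show that the cells are neutrophils.

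The gates also held neutrophil RNA where it was not wanted. In the monocyte gate, 57, 116 and 36 cells were S100-high, and the 6 neutrophil markers summed to 14485, 14575 and 4616 CPM. Monocyte, macrophage and T cell results are therefore also given without S100-high cells, an alternative chosen after the data were seen.

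There is 1 library per group, so no test between groups was possible. Counts were summed over the cells of a gate and divided by its total, with exact Poisson 95% intervals on the CPM, and ratios to vehicle carry exact conditional binomial 95% intervals. Both cover counting error only, and not the variation between mice. Calls were made on size alone. They needed a log2 ratio of 0.5 or more in either direction, an interval that left out 0 and 20 or more counts over both libraries. Both comparisons share the vehicle library.

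Cxcl2 was the leading ligand of these leukocytes. Over all kept cells it had 91578 UMIs in vehicle, 60188 in p38i and 57015 in p38KO, against 12850, 15076 and 8296 UMIs of Cxcl3 and 156, 70 and 111 UMIs of Cxcl1. UMIs count captured 3′ ends and were not divided by length. Cxcr2 had 6684, 7144 and 6550 UMIs and Cxcr1 466, 438 and 345.

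**Figure D1:**
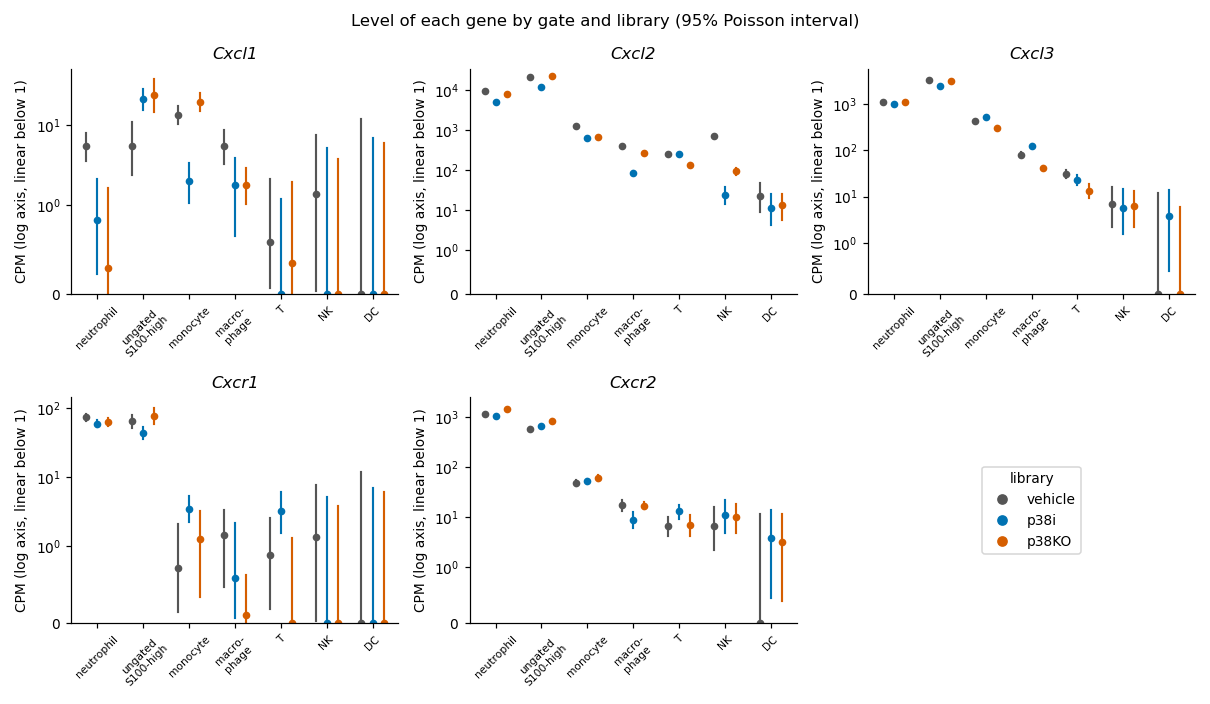
Level of each gene in CPM (log axis, linear below 1) by gate, for the vehicle, p38i and p38KO libraries, with points for the summed level and lines for the 95% Poisson interval. Cxcl2, Cxcl3 and both receptors were highest in the neutrophil and ungated S100-high cells, and Cxcl2 lay between 5190.2 and 22525 CPM there, while Cxcl1 stayed below 25 CPM in every gate.

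Among the sorted leukocytes, the neutrophil gate and the ungated S100-high cells together held most of the Cxcl2, Cxcl3 and receptor UMIs. Only CD45+ cells were sorted, so these shares leave out ligand RNA of tumor cells and other non-leukocytes. Of all Cxcl2 UMIs, the neutrophil gate held 49.0% in vehicle, 41.2% in p38i and 48.7% in p38KO, and the ungated S100-high cells a further 33.5%, 43.8% and 31.4%. These cells carried 21.9%, 19.8% and 13.8% (gate) and 6.98%, 8.81% and 3.26% (ungated) of the UMIs of all genes. Monocytes held 5.85%, 7.03% and 3.795% of Cxcl2 and macrophages 1.48%, 0.487% and 4.18%. Cells outside these gates held similar parts, so monocytes were not clearly the next source. Ungated cells that were not S100-high held 6.47%, 3.83% and 4.95%, at 4163, 1458 and 2436 CPM of Cxcl2. Cells that met several gates and were not assigned held 2.19%, 2.27% and 6.12%.

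Cxcl3 was less concentrated in neutrophils. The neutrophil gate held 38.4%, 31.2% and 43.4% of its UMIs, the ungated S100-high cells 37.2%, 35.2% and 29.1%, and the monocyte gate 14.1%, 22.5% and 11.7%. The receptor was the most concentrated of these, with 77.5%, 69.9% and 74.4% of Cxcr2 UMIs in the neutrophil gate and 12.7%, 20.04% and 10.1% in ungated S100-high cells. Cxcr1 followed it, with 71.0%, 64.2% and 61.4% in the gate. The macrophage gate held 36.4% of all UMIs in the p38KO library but 2.32% of Cxcr2.

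**Figure D2:**
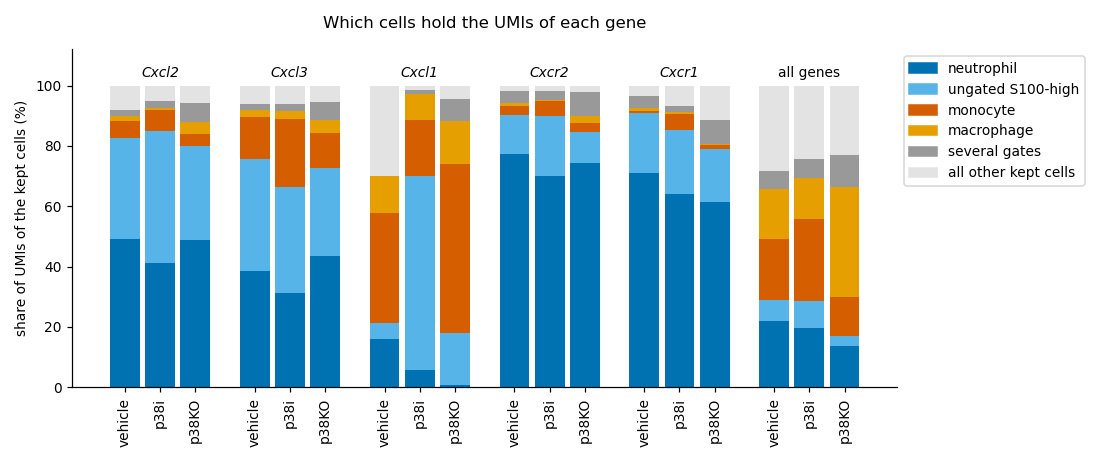
Share of the UMIs of each gene (percent of the UMIs of all kept cells, vertical axis) held by each gate in each library, with the share of all genes at the right. The neutrophil and ungated S100-high cells together make up the largest part of the Cxcl2, Cxcl3, Cxcr2 and Cxcr1 bars in all 3 libraries, and the Cxcl1 bars differ from library to library.

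Cxcl2, the major ligand, was called lower in neutrophils of the p38i library, and its summed level was not called in those of the p38KO library. Its level in the neutrophil gate was 9837 CPM (9746 to 9928) in vehicle, 5190.2 CPM (5126 to 5255) in p38i and 8272 CPM (8175 to 8369.8) in p38KO. In p38i the log2 ratio was -0.92 (-0.94 to -0.90), called lower. For p38KO it was -0.25 (-0.27 to -0.23), which is under the limit for a call. Of the 5 genes, Cxcl1 and Cxcl2 were called lower in p38i neutrophils, where 3.02% of 8355 genes were called lower, and only Cxcl1 in p38KO neutrophils, where 3.12% of 8100 genes were.

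The ungated S100-high cells gave the highest Cxcl2 levels of all, 21119 CPM in vehicle, 12357 in p38i and 22525 in p38KO. The p38i library was again lower (log2 ratio -0.77, -0.80 to -0.75), and the p38KO library was not called (0.09, 0.07 to 0.12). Here Cxcl2 and Cxcr1 were called lower in p38i (4.48% of 6155 genes were called lower) and Cxcl1 higher (9.75% were called higher), while Cxcl1 and Cxcr2 were called higher in p38KO (6.53% of 4963 genes).

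To compare cells at the same depth, each cell was thinned to 1500 UMIs. A Cxcl2 UMI was then found in 76.4% (74.1% to 78.5%, Clopper-Pearson) of vehicle neutrophils, 66.0% (63.6% to 68.4%) of p38i neutrophils and 67.0% (64.3% to 69.6%) of p38KO neutrophils, or 80.4%, 72.4% and 71.5% with all UMIs. T cells, which gave the background, held one in 9.76%, 6.07% and 5.86% (24.7%, 10.1% and 15.04% with all UMIs) at a median depth of 5079, 3844.5 and 4725 UMIs, against 2558, 2380.5 and 2207 in neutrophils. The intervals of p38i and p38KO overlapped in this share and both lay below that of vehicle. These intervals count cells of 1 library each and leave out the variation between mice. The p38i and p38KO libraries stood further apart in the number of Cxcl2 UMIs per cell. At least 15 of the 1500 UMIs were Cxcl2 in 33.5% of vehicle, 18.4% of p38i and 25.6% of p38KO neutrophils, and the median cell held 6, 2 and 3. In the ungated S100-high cells, 61.7%, 38.8% and 52.9% reached 15, with medians of 23, 9 and 17.

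**Figure D3:**
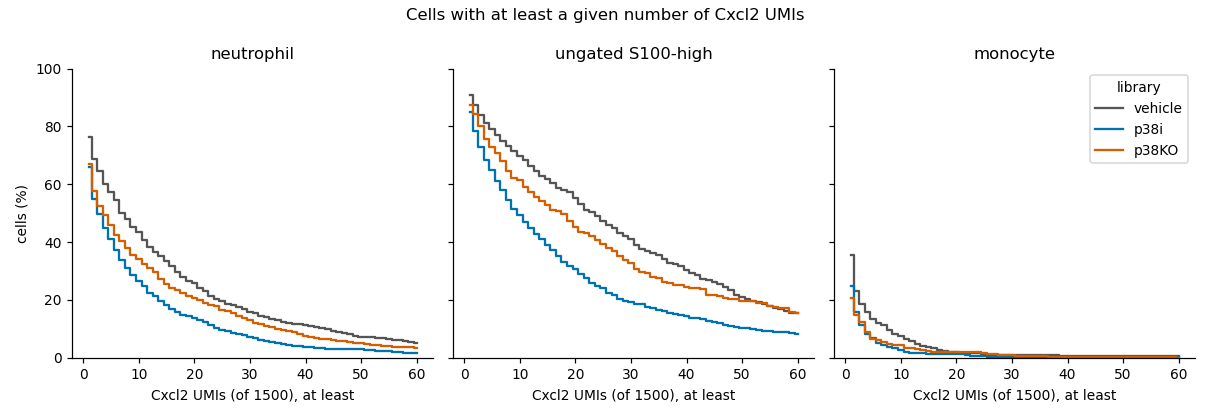
Percent of cells (vertical axis) with at least a given number of Cxcl2 UMIs among 1500 (horizontal axis), for the neutrophil gate, the ungated S100-high cells and the monocyte gate, with 1 line per library. In the neutrophil gate, 33.5% of vehicle, 25.6% of p38KO and 18.4% of p38i cells had at least 15, and in the monocyte gate 1.41% to 3.79% of cells did.

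Cxcl2 was thus spread over many cells at very different levels. The tenth of vehicle neutrophils with most Cxcl2 held 47.5% of its UMIs in the gate, and this share was 51.7% in p38i and 53.4% in p38KO. The highest single cells held 490, 392 and 587 Cxcl2 UMIs.

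Cxcl3 was not called in neutrophils. Its level in neutrophils was 1081 CPM in vehicle, 985 in p38i and 1073 in p38KO. The log2 ratios were -0.13 (-0.19 to -0.08) and -0.01 (-0.07 to 0.05). A Cxcl3 UMI was found in 22.3%, 23.5% and 22.2% of thinned neutrophils (27.4%, 28.2% and 25.8% with all UMIs), against 1.29%, 1.56% and 0.977% of T cells. In the ungated S100-high cells Cxcl3 had 3296, 2488 and 3044 CPM. Neither log2 ratio, -0.41 (-0.46 to -0.35) or -0.11 (-0.19 to -0.04), was called, but with a gate limit of 1 UMI Cxcl3 was called lower in p38i there (-0.51).

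As the ligands are neighbours with like promoter letters, their counts were set against each other within each gate. The number of Cxcl2 UMIs per Cxcl3 UMI in neutrophils was 9.10 (8.83 to 9.37) in vehicle, 5.27 (5.11 to 5.44) in p38i and 7.71 (7.45 to 7.98) in p38KO. In ungated S100-high cells it was 6.41, 4.97 and 7.40, in monocytes 2.96, 1.25 and 2.23, and in macrophages 4.89, 0.701 and 6.45. The p38i library had the lowest ratio in each of these 4 sets, and the ratio does not depend on how the libraries were scaled. It does depend on single cells where counts are few. In p38i macrophages, 3 cells held 363 of the 418 Cxcl3 UMIs, so the value of 0.701 rests largely on them. In the T gate the number of Cxcl2 UMIs per Cxcl3 UMI was 8.32, 11.1 and 10.03, and without S100-high cells 3.33, 3.21 and 7.80.

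Both ligands were found in the same cells. Among thinned neutrophils with a Cxcl2 UMI, 27.9% of vehicle, 31.7% of p38i and 29.6% of p38KO cells also had a Cxcl3 UMI. Without a Cxcl2 UMI the shares were 4.35%, 7.40% and 7.33%, above the T gate.

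Cxcl1 was rare and rested on few cells. The neutrophil gate held 25 UMIs in 12 vehicle cells, 4 UMIs in 4 p38i cells and 1 UMI in 1 p38KO cell, or 5.48, 0.837 and 0.298 CPM. Both groups were called lower, p38i at a log2 ratio of -2.71 (-4.69 to -1.18) and p38KO at -4.20 (-9.56 to -1.59). With a gate limit of 1 UMI in place of 2, the p38KO ratio was -0.18 and not called. In the ungated S100-high cells the order was the reverse, with 8, 45 and 19 UMIs (5.51, 21.1 and 23.9 CPM). The log2 ratios were 1.94 (0.84 to 3.23) in p38i, and 2.12 (0.86 to 3.52) in p38KO. With a gate limit of 3 UMIs, which moves cells between these sets, they were 0.78 and 0.80 and not called. Of the 45 UMIs of the p38i library, 36 were in 3 cells with 16, 11 and 9 each. The 2 cells with most Cxcl1 in the vehicle library, 1 in the monocyte gate and 1 in no gate, held 39 and 38 of its 156 UMIs.

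One cell decided the p38KO level in monocytes. It held 55 of the 62 Cxcl1 UMIs of that gate, and with them 114 UMIs of Krt8, Krt18 and Epcam, 0 UMIs of Ptprc and 0 of Cxcl2. The gate as a whole gave 13.5 CPM in vehicle, 1.98 in p38i and 19.7 in p38KO. Without the cells that had a Krt8, Krt18 or Epcam UMI, the log2 ratio of p38KO in monocytes went from 0.54 (no call) to -4.35 (called lower). The list of tumor epithelial genes summed to 5.47, 4.12 and 142 CPM in the monocyte gates.

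In monocytes, Cxcl2 was lower in both groups. It had 1273 CPM (1239 to 1308) in vehicle, 646 (626 to 666) in p38i and 687 (658 to 716) in p38KO. These were log2 ratios of -0.98 (-1.04 to -0.92) for p38i, and -0.89 (-0.96 to -0.82) for p38KO. Cxcl1 and Cxcl2 were called lower and Cxcr1 higher in p38i monocytes, where 2.62% of 10174 genes were called lower and 4.48% higher, and Cxcl2 alone was called in p38KO monocytes, where 2.07% of 9726 genes were called lower. The Cxcr1 call rests on 3 against 23 UMIs, and without S100-high cells 0 and 1 were left, too few for a call. The Cxcl1 call was also lost without them (-0.95, from 17 and 13 UMIs). A Cxcl2 UMI was found in 35.6% (31.2% to 40.3%), 24.7% (21.7% to 27.9%) and 20.6% (16.6% to 25.01%) of thinned monocytes, or 56.6%, 42.2% and 35.4% with all UMIs.

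A large part of this Cxcl2 was in S100-high cells of the gate. Without them, the level was 801 CPM in 392 vehicle cells, 296 in 662 p38i cells and 517 in 343 p38KO cells. The log2 ratios became -1.44 (-1.52 to -1.35) and -0.63 (-0.72 to -0.54), so the p38i difference was larger and the p38KO difference smaller. Both stayed called lower, where 2.75% and 2.16% of genes were called lower among these cells. In p38KO, Cxcr2 (1.64) and Cxcl1 (2.19) were then called higher, where 8.27% of genes were, and 55 of the 62 Cxcl1 UMIs were those of the keratin-bearing cell. With a gate of 1 UMI in place of 2 and S100-high cells kept, the log2 ratio of Cxcl2 in p38KO monocytes was -0.18 and its call was lost.

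Cxcl3 in monocytes was not called, and only its p38KO ratio had the sign of Cxcl2. It had 430.1 CPM in vehicle, 518 in p38i and 308 in p38KO. The log2 ratio was 0.27 (0.18 to 0.35) for p38i, and for p38KO -0.48 (-0.59 to -0.37). Without S100-high cells the values were 397, 479 and 279 CPM, and the log2 ratio of p38KO, -0.51 (-0.63 to -0.38), passed the limit. It also passed for cells of exactly 1 gate (-0.59), a mitochondrial limit of 5% (-0.51), a mean of per-cell CPM (-0.52) and median-ratio scaling (-0.56). In p38i Cxcl3 was called higher with a gate limit of 1 UMI (0.56) and without the 3 highest cells (0.74). In these S100-low monocytes of the p38i library Cxcl3 UMIs outnumbered those of Cxcl2, with 2561 against 1583, while vehicle had 1431 against 2888 and p38KO 804 against 1490.

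Macrophages had low levels that rested on few cells. Cxcl2 was 394, 87.0 and 269 CPM, called lower in p38i at a log2 ratio of -2.18 (-2.37 to -1.996) and in p38KO at -0.55 (-0.65 to -0.46). Cxcl3 was 80.6, 124 and 41.7 CPM, called higher in p38i (0.62) and lower in p38KO (-0.95). In the p38i library, 1 cell held 265 of the 418 Cxcl3 UMIs and 3 cells held 363, and without the 3 highest cells of each library the ratio was -1.02. Among the 5 genes, Cxcl1, Cxcl2 and Cxcr2 were called lower in p38i macrophages (4.17% of 9878 genes) and Cxcl3 higher (2.86%), and Cxcl1, Cxcl2 and Cxcl3 were called lower in p38KO macrophages (3.49% of 10839 genes). The p38KO values changed with the gating. For cells of exactly 1 gate, Cxcl2 (1.07) and Cxcl3 (2.15) were called higher in p38KO. The Cxcl2 call was lost with a gate limit of 3 UMIs (-0.34) and with no cell filter (-0.46), and the Cxcl1 call with a gate limit of 1 UMI (0.057). Without S100-high cells Cxcl2 was 209, 71.0 and 100.2 CPM, still called lower in both. Among these cells 3.99% of genes were called lower in p38i, 2.87% higher (with Cxcl3, at 1.04) and 3.56% lower in p38KO. The Cxcr2 ratio of p38i went from -0.97 to 0.86 without them, from 10 and 18 UMIs, and was not called. A Cxcl2 UMI was found in 13.3%, 7.45% and 6.43% of thinned S100-low macrophages, against 8.26%, 4.01% and 4.37% of S100-low T cells, the background. Cxcl2 was 99.7, 50.9 and 28.05 CPM in those T cells, also called lower in both groups (2.34% and 3.44% of genes were). The part of background RNA in the macrophage values was not tested.

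**Figure D4:**
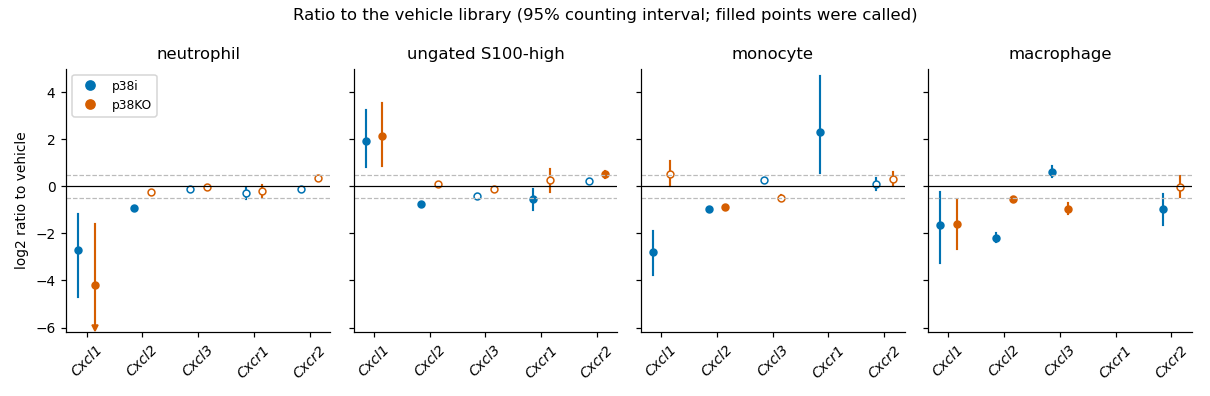
Log2 ratio to vehicle (vertical axis) of each gene in 4 sets of cells, for p38i and p38KO, with 95% counting intervals. Filled points were called, dashed lines mark 0.5 either way, an arrow marks an interval that runs below -6, and genes with under 20 counts are left out. Cxcl2 was called lower in p38i in all 4 sets and in p38KO in monocytes and macrophages only, where the monocyte call was lost with a gate limit of 1 UMI (-0.18) and the macrophage call turned to higher for cells of exactly 1 gate (1.07).

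The summed level of dissociation-response genes (Fos, Jun, Egr1, Hspa1a and Hspa1b, all 5 detected in each set) was, like Cxcl2, lowest in the p38i library in 4 sets of cells. It was 1950 CPM in vehicle, 1453 in p38i and 1774 in p38KO neutrophils, 1959, 1108 and 1337 in monocytes, 709, 450.3 and 527 in macrophages and 2482, 1420.2 and 1819 in ungated S100-high cells. Their part in the Cxcl2 levels was not tested.

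Outside the myeloid cells, a few cells held most Cxcl2 UMIs of the vehicle T and NK gates, while 134 T and 29 NK cells had at least 1. The T gate had 255 CPM in vehicle, 257 in p38i and 135 in p38KO, and 9 of the 543 vehicle T cells held 671 of the 865 UMIs. Without S100-high cells the level was 99.7, 50.9 and 28.05 CPM, and Cxcl2 and Cxcl3 were called lower in both groups (2.34% and 3.44% of genes were called lower). The vehicle and p38i counts behind these calls rest in part on few cells. Among the S100-low T cells, 3 vehicle cells held 165 of 333 Cxcl2 UMIs. The 78 Cxcl2 UMIs of p38KO were spread over 69 of 504 cells, with at most 4 in 1 cell. For Cxcl3, 1 vehicle cell held 71 of 100 UMIs and 1 p38i cell 33 of 47. Cxcl2 and Cxcl3 were called lower in the p38KO T gate (3.35% of 9986 genes were called lower) and Cxcr2 higher in the p38i T gate (5.17% of 9995 genes were called higher), from 23 and 40 UMIs. The Cxcr2 call was lost for cells of exactly 1 gate (0.49), with a mitochondrial limit of 5% (0.70) and without S100-high cells, which left 7 and 10 UMIs. With no cell filter the Cxcl2 call of the p38KO T gate was lost (-0.33). Cxcl2 was not called in the full p38i T gate (0.01). It was called lower there with a mitochondrial limit of 5% (-0.60) and without the 3 highest cells (-0.65). In NK cells, 3 vehicle cells held 477 of 523 Cxcl2 UMIs, and the p38i and p38KO libraries had 17 and 93 in all, called lower in both groups (5.66% of 6872 and 6.68% of 7394 genes). Dendritic cells had 6 to 8 Cxcl2 UMIs per library and 0 of Cxcl1 and Cxcr1, and a count of 0 allows up to 9.65, 5.68 and 4.93 CPM there.

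Cxcr2, the receptor that neutrophils use to follow these ligands, was not called in the neutrophil gate of either group. Its level was 1135 CPM (1104 to 1166) in vehicle, 1045 (1016 to 1074) in p38i and 1452 (1411 to 1493) in p38KO. Log2 ratios were -0.12 (-0.18 to -0.06) and 0.36 (0.30 to 0.41). A Cxcr2 UMI was found in 70.5%, 69.1% and 75.9% of thinned neutrophils (79.7%, 80.3% and 83.7% with all UMIs), against 0.737%, 1.25% and 1.37% of T cells. The counting intervals, over the cells of 1 library each, overlapped for vehicle and p38i in this share, and that of p38KO lay above them.

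In the ungated S100-high cells Cxcr2 was lower than in the gate, with 583, 671 and 833 CPM. For p38i the log2 ratio was 0.20 (0.08 to 0.33). For p38KO it was 0.52 (0.37 to 0.66), called higher but close to the limit, and it was not called with a gate limit of 3 UMIs (0.42), no cell filter (0.48) or median-ratio scaling (0.48). When neutrophils were gated on S100a8 and S100a9 in place of Csf3r, the ratios were -0.20 and 0.44 and neither was called. Monocytes had 49.0, 51.9 and 60.6 CPM of Cxcr2 and macrophages 17.4, 8.91 and 17.1. The log2 ratio of p38KO monocytes, 0.31 (0.02 to 0.60), was not called. It was called higher with thinned cells (0.82), as a mean of per-cell CPM (1.02) and without cells above the 98th percentile of UMIs (0.58). Without S100-high cells the monocyte level was 8.59, 11.6 and 26.7 CPM, from 31, 62 and 77 UMIs. T cells without S100-high cells had 2.10, 3.37 and 4.31 CPM, from 7, 10 and 12 UMIs.

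Cxcr1 had the same cells at a far lower level. Neutrophils had 72.5 CPM in vehicle, 58.8 in p38i and 63.1 in p38KO. The log2 ratios, -0.30 (-0.54 to -0.07) and -0.20 (-0.46 to 0.05), were under the limit. Thinned neutrophils held a Cxcr1 UMI in 6.78%, 7.02% and 6.32% of cells. In ungated S100-high cells the level was 64.1, 43.6 and 76.8 CPM, and the p38i library was called lower (-0.56, -0.99 to -0.13), a call lost with a gate limit of 3 UMIs (-0.40) and with thinned cells (-0.36).

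Neutrophils with more Cxcr2 had less Cxcl2. Among thinned vehicle neutrophils, a Cxcl2 UMI was present in 83.8% of the 431 cells with 0 Cxcr2 UMIs, 79.5% of the 336 with 1 and 70.3% of the 694 with 2 or more. In p38i the shares were 78.3%, 73.4% and 54.2%, and in p38KO 78.6%, 68.0% and 61.4%. The order was the same in all 3 libraries. Cells with a Cxcr2 UMI were below cells without one by 10.5 percentage points in vehicle (a difference of -10.5, interval -14.8 to -5.78), 17.7 in p38i (-17.7, -22.4 to -12.8) and 15.4 in p38KO (-15.4, -20.8 to -9.52).

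The levels moved further than the shares. Cxcl2 went from 14585 CPM in vehicle cells with 0 Cxcr2 UMIs to 10454 and 7310.3 CPM, from 7619 to 6486 and 3752 in p38i, and from 11439 to 9120.0 and 5986 in p38KO. Cxcl3 went from 1694 to 990.1 and 634 CPM in vehicle, 1631 to 838 and 707 in p38i, and 1376 to 1246 and 846 in p38KO. The lower Cxcl2 of p38i was thus present at each Cxcr2 level. The cells compared share a library and are not replicates of it. Median depth before thinning was 2529 to 2716.5 UMIs over the 3 groups of cells in vehicle, 2323 to 2534 in p38i and 2186 to 2282 in p38KO.

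**Figure D5:**
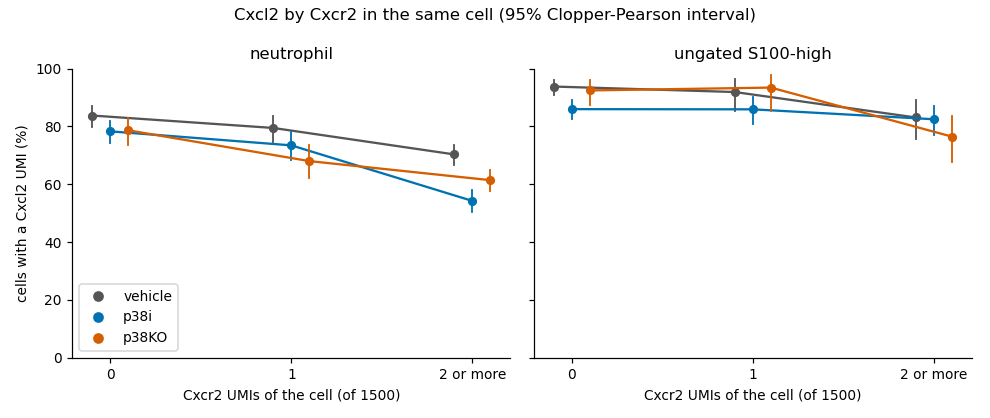
Percent of cells with a Cxcl2 UMI (vertical axis) by the number of Cxcr2 UMIs in the same cell (horizontal axis), after thinning to 1500 UMIs, for the neutrophil gate and the ungated S100-high cells of each library, with Clopper-Pearson intervals. In the neutrophil gate the share was lower with each step of Cxcr2 in all 3 libraries, from 83.8% to 70.3% in vehicle, and in the ungated cells it was lowest with 2 or more Cxcr2 UMIs.

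Over the 18 sums of 6 gates and 3 libraries, each gene was compared with all genes of at least 100 counts by the Pearson correlation of log2(CPM + 10). These sums share libraries and depth, and the order mainly reflects which gates express a gene. Cxcl2 was most like Cstdc4 (r = 0.967), Ifrd1 (0.964) and Ccrl2 (0.959), the last an atypical chemoattractant receptor. Cxcl3 was most like Plaur, the urokinase receptor (0.987), Egln3, an oxygen-sensing hydroxylase (0.985), and Cebpb, a myeloid transcription factor (0.981). Cxcr2 was most like Mirt2, Hdc, which makes histamine, and Chil1 (0.991 to 0.995). Cxcr1 was most like Gm31683, Gm50255 and 4933412O06Rik (0.991 to 0.993). Cxcl1 was most like Igf2bp2, Gja1 and Gm4117 (0.866 to 0.900), over a range that the single keratin-bearing cell of p38KO monocytes sets in part. Cxcl2 and Cxcl3 correlated at 0.876 and both receptors at 0.957.

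A list of 51 genes of this pathway put the ligands and receptors in context. It holds other ligands, atypical receptors, signalling and desensitisation genes, inducers of the ligands, NF-κB and message decay feedback genes, other chemoattractant receptors and p38 pathway genes. Calls of the listed genes were not recomputed under other gate limits, filters or scalings, and those close to the limit may not hold there. In p38i neutrophils 1 was called higher and 7 lower of 43 with enough counts (6.99% and 3.02% of all genes), with a median log2 ratio of -0.08 beside 0.09 over all genes. In p38KO neutrophils 7 were higher and 1 lower of 43 (9.21% and 3.12% of all genes), with a median of 0.17 beside 0.10. In monocytes 1 was higher and 8 lower of 46 in p38i (4.48% and 2.62% of all genes), with a median of -0.09 beside 0.04. In p38KO monocytes 3 were higher and 4 lower of 47 (9.02% and 2.07% of all genes), with a median of -0.07 beside 0.10. In p38i ungated S100-high cells 4 were higher and 4 lower of 42 (9.75% and 4.48% of all genes). There, 0 of 3 inducers and 0 of 7 other chemoattractant receptors were called, so the p38i calls of Il1b and Cxcr4 given below for neutrophils were not seen. In p38KO ungated S100-high cells 7 were higher and 1 lower of 40, where 6.53% of all genes were called higher.

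Among the p38 pathway genes, Dusp1, the phosphatase that switches p38 off, was called lower in both groups in the neutrophil and monocyte gates. It had 2348 CPM in vehicle neutrophils, 750.4 in p38i and 1513 in p38KO, with log2 ratios of -1.65 and -0.63. In monocytes it had 552, 176 and 172 CPM, with log2 ratios of -1.65 and -1.69. Mapk14, the gene of p38α, and Mapkapk2, that of MK2, were not called in neutrophils or monocytes. In ungated S100-high cells, 0 of the 2 p38 pathway genes with enough counts were called in p38KO. In p38i, 1 of 3 was called higher and 1 lower there (9.75% and 4.48% of all genes).

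Of the inducers of the ligands, 1 was called lower in p38i neutrophils (3.02% of all genes were) and 2 higher in p38KO neutrophils (9.21% were), of 3 with enough counts. Il1b, which encodes interleukin-1β, had 12698 CPM in vehicle, 8885 in p38i and 14335 in p38KO neutrophils, called lower in p38i (-0.52) only. Il1a and Tnf, encoding interleukin-1α and tumor necrosis factor, were called higher in p38KO neutrophils (1.52 and 1.29) and not called in p38i (-0.17 and -0.25). In monocytes, where 4 had enough counts, 3 were called lower in p38i (Il1a, Il1b and Il6, at -0.61, -0.57 and -1.002), and in p38KO Il1a was called higher (0.51) and Il6 lower. Over all genes, 2.62% were called lower in p38i monocytes, and 9.02% higher and 2.07% lower in p38KO monocytes. Il6 in monocytes had 10.7, 5.34 and 3.81 CPM and log2 ratios of -1.002 and -1.49.

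Of the 8 NF-κB and decay feedback genes, Tnfaip3, Bcl3 and Zfp36 were called lower in p38i neutrophils (3.02% of all genes were), and Tnfaip3 and Zc3h12a higher in p38KO neutrophils (9.21% were). Zfp36 encodes tristetraprolin, which binds AU-rich messages and speeds their decay. It had 1448 CPM in vehicle, 907 in p38i and 1703 in p38KO neutrophils, with log2 ratios of -0.67 and 0.23. In monocytes Zfp36 and Zfp36l1 were called lower in p38i (2.62% of all genes were). In p38KO monocytes 0 of the 8 were called, where 9.02% of all genes were called higher and 2.07% lower. The atypical receptor Ccrl2 had 1450 CPM, 783 and 1858 in neutrophils, called lower in p38i (-0.89).

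Of 12 signalling genes, which act below the receptors, 0 were called in p38i neutrophils and 1, Pik3cg, a phosphoinositide kinase subunit, was called higher in p38KO (0.69). Over all genes, 6.99% were called higher and 3.02% lower in p38i neutrophils, and 9.21% higher in p38KO neutrophils. Of 7 desensitisation genes, Grk6 was called higher in p38i (0.55) and Rgs2 in p38KO (0.68) neutrophils. Rgs18, a regulator of G protein signalling, was called higher in both groups in monocytes (0.59 and 0.81), where 4.48% and 9.02% of all genes were. Among other chemoattractant receptors, Cxcr4, which retains neutrophils in the marrow, was called lower in p38i neutrophils (-0.52) and higher in p38KO neutrophils (0.72).

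Among the other chemokine genes of the list, Cxcl5 had 0, 0 and 2 UMIs in the neutrophil gates, Ppbp 3, 0 and 0, and Cxcl15 0, 3 and 1. In p38KO monocytes Cxcl5 was called higher, with 25 UMIs against 2, and Ppbp lower, with 7 against 87. Tumor epithelial genes summed to 142 CPM in this gate and 5.47 CPM in that of vehicle. The part of keratin-bearing cells in the Cxcl5 count was not tested. Pf4, which encodes a related platelet chemokine, had 326, 253 and 307 CPM in monocytes, and 912, 623 and 440.2 CPM in macrophages, called lower there in both groups (-0.55 and -1.05). Mif, whose product also binds other receptors, had 1025, 980.4 and 839 CPM in neutrophils, where Cxcl3 had 1081, 985 and 1073, and was not called.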

How the data were processed

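CD45+ cells of 3 libraries, 1 each for vehicle, p38i and p38KO, were analysed. The authors aligned reads with Cell Ranger (6.0.0 in the file headers) and deposited unnormalized UMI counts per gene and barcode. The submitters' processing notes name mm10, R 4.2.1 and Seurat 5. Groups came from the sample labels.

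The study's cell filter was applied. Myeloid gates needed 2 UMIs and lymphoid and dendritic gates 1 UMI. Of cells that met the neutrophil gate and the monocyte or macrophage gate, the larger count decided. C1qa-positive cells, however, were never neutrophils or monocytes. In vehicle, p38i and p38KO, 139, 167 and 258 cells that met several gates stayed unassigned, and a further 911, 1303 and 683 cells met no gate. Counts per gate were summed to CPM, with 0.5 in place of a count of 0 in ratios. Thinning used seed 1. Depth was 20795195, 24210342 and 24374173 UMIs in kept cells. The motif words were taken from the 3 ligand windows. Named pathway genes were those called the same way in both groups in neutrophils or monocytes, and the near-absent ligands. Other pathway genes were named after their values were seen. The members and lists were chosen with earlier results of these data known. The ratio and its interval were tried on simulated Poisson counts, the model that the interval assumes. These lack the uneven spread of UMIs over cells and the variation between mice, so they cannot show how the interval fares with either. Motifs were searched in RefSeq sequence, with 5 of 5 symbols matched. Alternatives covered gate limits, single-gate cells, the cell filter, mitochondrial limits, very deep cells, cells with keratin counts, per-cell means, scaling and thinning. Ratios were recomputed under them for the 5 genes and not for the pathway list. Python 3.11.15, numpy 2.4.6, scipy 1.17.1 and matplotlib 3.10.9 were used.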

Additional observations from a re-analysis of the deposited data

Results flagged for a closer look

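In the same comparison, a few of these genes were called in opposite directions in different cells, with 1 library per group, and the difference between the cells was not tested. Cxcl1 was called higher in ungated S100-high cells in p38i (log2 ratio 1.94), while it was called lower in neutrophils (-2.71), monocytes (-2.77) and macrophages (-1.63). In p38KO it was higher in ungated S100-high cells (2.12) and lower in neutrophils (-4.20) and macrophages (-1.61). All of these Cxcl1 values rest on 1 to 57 UMIs per library. Cxcr1 was called higher in p38i monocytes (2.30, from 3 and 23 UMIs, and too few for a call without S100-high cells, with 0 and 1) and lower in p38i ungated S100-high cells (-0.56, from 93 and 93 UMIs). Cxcr2 was called higher in the p38i T gate (0.95, from 23 and 40 UMIs) and lower in p38i macrophages (-0.97, from 60 and 30 UMIs). The T call was lost for cells of exactly 1 gate (0.49), with a mitochondrial limit of 5% (0.70) and without S100-high cells, which left 7 and 10 UMIs. Without those cells the macrophage ratio was 0.86 and was not called.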

How the results depend on the processing

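No paired analysis was possible because each group has 1 library. Ratios are log2 to vehicle. The cause of each move was not tested, except where the alternative leaves out cells. At a log2 limit of 0.5, Cxcl2 in p38i neutrophils (-0.92) was called lower under the 12 alternatives that could change it, at -0.75 with a gate limit of 1 UMI, -0.86 as a mean of per-cell CPM, -0.99 with median-ratio scaling, -0.870 with thinned cells and -0.81 with neutrophils gated on S100a8 and S100a9. In p38KO neutrophils (-0.25) it was never called, at -0.29 with a gate limit of 1 UMI, -0.29 with no cell filter, -0.30 without cells above the 98th percentile of UMIs, -0.34 as a mean of per-cell CPM, -0.35 with median-ratio scaling, -0.35 with thinned cells, -0.12 with the S100 gate and -0.28 without the 3 highest cells. Cxcr2 was never called in neutrophils. In p38i (-0.12) it was -0.19 with a gate limit of 3 UMIs, -0.19 with median-ratio scaling and -0.20 with the S100 gate, and in p38KO (0.36) it was 0.25 with median-ratio scaling, 0.26 with thinned cells and 0.44 with the S100 gate. At the same limit Cxcl2 in p38i monocytes (-0.98) was called lower under each alternative, at -0.83 with a gate limit of 1 UMI, -1.19 for cells of exactly 1 gate, -1.07 with thinned cells and -1.44 with the S100 gate or without S100-high cells. In p38KO monocytes (-0.89) the call was lost with a gate limit of 1 UMI (-0.18), and the ratio was -0.81 with a mitochondrial limit of 5%, -0.81 without cells with keratin or Epcam UMIs, -0.97 with median-ratio scaling, -0.63 with the S100 gate or without S100-high cells and -1.004 without the 3 highest cells.

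Among values that had been called, signs changed for macrophages only. Cxcl3 in p38i went from 0.62 to -0.066 with a gate limit of 1 UMI, -0.091 with thinned cells and -1.02 without the 3 highest cells. Cxcr2 in p38i went from -0.97 to 0.86 with the S100 gate or without S100-high cells. In p38KO, Cxcl1 went from -1.61 to 0.057 with a gate limit of 1 UMI, and Cxcl2 from -0.55 to 1.07 and Cxcl3 from -0.95 to 2.15 for cells of exactly 1 gate. With a log2 limit of 1 in place of 0.5, called genes went from 836 to 311 in p38i and 999 to 380 in p38KO neutrophils, and from 723 to 276 and 1078 to 451 in monocytes, and the Cxcl2 ratios of p38i neutrophils (-0.92), ungated S100-high cells (-0.77) and monocytes (-0.98) and of p38KO monocytes (-0.89) are under that limit. The lower Cxcl2 share of neutrophils with Cxcr2 kept its sign with all UMIs (differences of -11.1, -12.4 and -16.3 percentage points) and with the S100 gate (-12.0, -12.2 and -16.5). Alternatives added after the data were seen are the S100 gate and those that leave out S100-high cells or the 3 highest cells. The intervals leave out the variation between mice. Cxcl1, all dendritic cell values and Cxcr1 in the monocyte, macrophage, T and NK gates lie near the counting floor.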
